A study of Mus musculus with 29 samples.

Results

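CD150hi HSC were compared with CD150neg MPP in mice that carry a heterozygous deletion of mouse chromosome band 5A3 (5A3+/del). The comparison holds 9 of the 29 RNA-Seq libraries, 5 of CD150hi HSC and 4 of CD150neg MPP. They were chosen by the genotype and the sorted population in the sample labels, and a mouse code in the labels shows that 4 mice gave both populations. Mouse 5 gave no CD150neg MPP library.

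Both populations came from the bone marrow of C57BL/6J mice aged 12.42 to 13.85 weeks and were sorted as c-kit+, lineage-, Sca-1+ cells negative for CD41 and CD48. They differ in the gate on CD150 alone. The labels call the CD150neg cells HSC, whereas the paper calls them multipotent progenitors (MPP). The deletion was made in embryonic stem cells by recombination between sites placed in Fbxl13 and Srpk2, so every cell of these mice carries it on one chromosome, the CD150neg MPP included. The 5A3 band is syntenic to a segment of human chromosome 7q22 that is lost in myeloid malignancies. WT mice of 12.42 to 13.28 weeks and the CD150lo HSC of the same animals are used below as references.

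Hematopoietic stem cells sit at the top of the blood lineages, divide rarely and can restore all of them after transplantation. CD150, a receptor of the SLAM family encoded by Slamf1, is carried by the stem cells with the strongest self-renewal and with a bias to megakaryocytes and myeloid cells. Multipotent progenitors lose CD150 and self-renewal, gain the cytokine receptor Flt3 in their lymphoid-primed fraction, and start to transcribe genes of the lineages they will enter.

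The values are FPKM, fragments scaled to transcript length and to library size, in which a level can be compared between genes. Between 25618477 and 33847646 fragments underlie each CD150hi HSC library and between 24596059 and 31440132 each CD150neg MPP library. Differences are given as log2(FPKM + 1) of CD150hi HSC minus CD150neg MPP after quantile normalization, with their standard error (SE), and understate the change of genes with low values. A gene was called when its adjusted p-value in limma, with mouse as a block, was under 0.05. The CD150hi HSC library of mouse 1 stood apart. On the first principal component of the 9 libraries, which held 26.9% of the variance, it lay at -75.57, the other 4 CD150hi HSC libraries at -8.27 to -2.18 and the CD150neg MPP libraries at 22.77 to 28.1. It had the fewest genes above 0, 17346 against 18443 to 21654 in the other 8. Leaving out that library lowered the counts given below from 551 to 421 genes higher and from 485 to 368 genes lower in CD150hi HSC.

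The level of the sort gene was checked first. Slamf1 (chromosome 1, 173697258 to 173731315, mm9) stood at a normalized FPKM of 21.6, 12.6, 16.2, 10.7 and 19.4 in the CD150hi HSC of mice 1 to 5 and at 0.185, 0.106, 0.0524 and 0.093 in the CD150neg MPP of mice 1 to 4. In fragments this was 1049 to 2181 against 1 to 25. The transcript followed the protein gate in every library, which is how the cells were chosen and no finding. Kit, which encodes c-kit, differed by 0.17 ± 0.12 (SE) and Ly6a, which encodes Sca-1, by -0.07 ± 0.18, and neither passed the test. Cd48 did pass, although both populations were gated as CD48 negative. Its normalized FPKM was 0.138, 2.23, 0.0546, 0.701 and 0.959 in CD150hi HSC and 3.00, 7.22, 8.70 and 7.87 in CD150neg MPP (-2.18 ± 0.27, adjusted p = 3.45e-05), without overlap. In fragments, Cd48 was at 0, 66, 7, 29 and 39 against 93, 226, 272 and 284. Itga2b, which encodes CD41, was at 8.46 in the CD150hi HSC of mouse 1, at 2.44 to 3.19 in the other 4 and at 1.25 to 2.36 in CD150neg MPP (0.78 ± 0.25, adjusted p = 0.067). Without the CD150hi HSC library of mouse 1 its difference was 0.44.

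The genotype was checked on 8 genes between Fbxl13 and Srpk2 that passed the filter on low values. Their summed normalized FPKM was 55.2 to 77.1 in 5A3+/del and 111 to 124 in WT CD150hi HSC, a ratio of 0.56, and 57.5 to 63.2 against 124 to 136 in CD150neg MPP, a ratio of 0.474. The genotypes did not overlap in these sums. Single genes did overlap, namely Armc10, Napepld and 5031425E22Rik in CD150hi HSC and Psmc2 in CD150neg MPP. For 5031425E22Rik the ratio was 0.971 in CD150hi HSC (3.51 to 10.7 against 4.50 to 8.49) and 0.37 in CD150neg MPP. The value of 10.7 came from the CD150hi HSC library of mouse 1, which stood apart, and raised the ratio. The paper, which shows CD150hi and CD150lo HSC, reports this RNA as lower in 5A3+/del HSC.

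In 5A3+/del mice, 551 of 15409 genes tested (3.58%) were higher in CD150hi HSC and 485 (3.15%) were lower, together 1036 genes (6.72%). The 9 libraries alone, without the mouse block, gave 252 and 197 genes, and the 8 paired libraries with it 103 and 68. Apart from Slamf1, leading genes were ordered by p-value among called genes without overlap and with the same sign in all 4 paired mice. The higher genes were led by Gda, Vwf, Sdpr, Tgm2 and Aldh1a1, and the lower genes by Flt3, Cd52, Satb1, Gm11428 and BC035044. The median size of the difference was 0.933 among the higher and 0.865 among the lower genes, against 0.211 over all genes tested. The difference was at least 2-fold (a log2 value of at least 1) for 237 higher and 197 lower genes. In the 4 mice with both libraries, 538 of the 551 higher genes and 464 of the 485 lower genes had the same sign in all 4. This held for 3772 of all 15409 genes tested. The calls used the same libraries, so these signs and the overlap given next are no separate support. The 2 populations did not overlap for 398 of the higher (72.2%) and 341 of the lower genes (70.3%), against 7.61% of all genes tested. The called genes were 519 higher and 436 lower protein-coding genes, 11 and 11 lincRNAs, and 6 and 23 pseudogenes, with the rest in smaller classes.

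**Figure D1:**
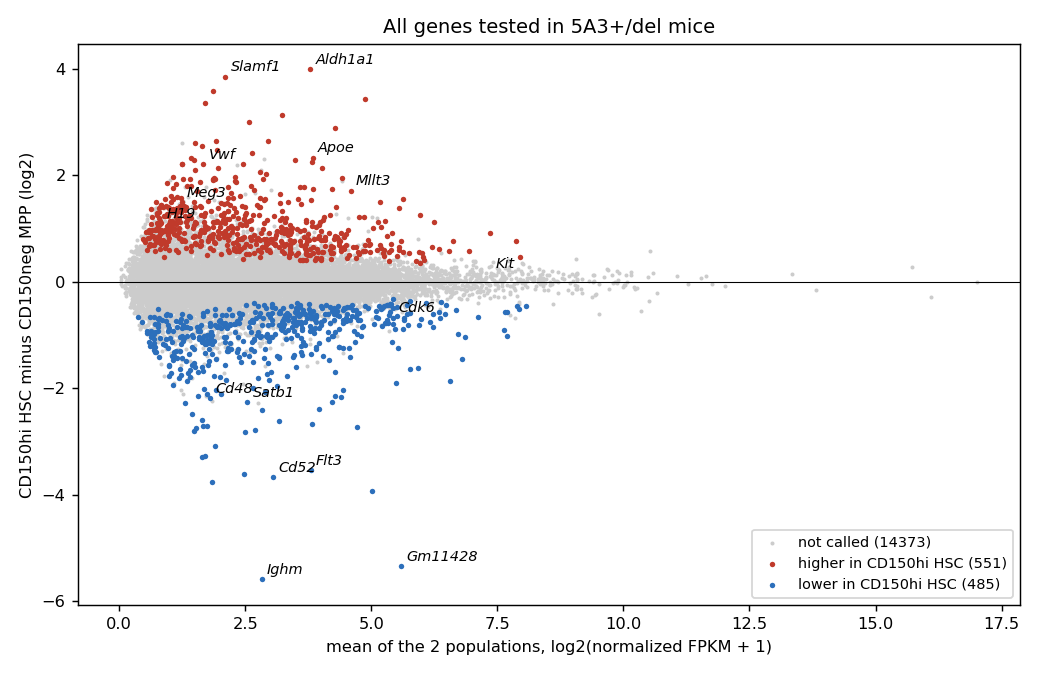
Difference between CD150hi HSC and CD150neg MPP of 5A3+/del mice (log2 of normalized FPKM + 1) against the mean level of the 2 populations on the same scale, 1 point per gene tested. Red, 551 genes called higher in CD150hi HSC. Blue, 485 genes called lower. Grey, 14373 genes not called. Ighm (-5.59) and Gm11428 (-5.35) are the lowest points, and Aldh1a1 (3.99) and Slamf1 (3.85) the highest.

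Among the genes higher in CD150hi HSC, Gda, which encodes guanine deaminase, was at 34.3, 24.4, 27.8, 21.1 and 27.1 in the CD150hi HSC of mice 1 to 5. It was at 2.06, 1.20, 4.18 and 1.87 in the CD150neg MPP of mice 1 to 4 (3.14 ± 0.18, adjusted p = 2.85e-09). Every CD150hi HSC library was above every CD150neg MPP library, which was a condition for the leading genes. For genes chosen in this way, such separation is no finding. Aldh1a1, which oxidizes retinaldehyde to retinoic acid, showed the greatest difference of the 551 genes. It was at 65.7, 60.6, 59.8, 49.2 and 40.5 in CD150hi HSC and at 0.603, 3.10, 3.51 and 3.74 in CD150neg MPP (3.99 ± 0.25, adjusted p = 8.6e-09). Cyp26b1, which degrades retinoic acid, was at 13.2, 19.1, 13.2, 7.85 and 4.76 against 0.0481, 0.233, 0.235 and 0.00887 (3.59 ± 0.26). The CD150neg MPP of mouse 1 had 0 fragments of Cyp26b1, and the other 3 had 8 to 34.

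Sdpr, a gene of the caveolar coat, had 432 to 1166 fragments in the CD150hi HSC libraries and 0 in each CD150neg MPP library. With 3 fragments per library as the floor, its mean FPKM was at least 261-fold higher in CD150hi HSC. This bound holds for the mean of the group and not for each library. Neo1, which encodes the receptor neogenin, was at 8.58, 8.07, 6.46, 4.69 and 5.13 in CD150hi HSC and at 0.553, 0.391, 0.314 and 0.0765 in CD150neg MPP (2.55 ± 0.17). Both groups kept apart in each of these genes, as the condition on leading genes required. Apoe, which encodes the lipid carrier apolipoprotein E, was at 28.1, 39.1, 34.8, 26.5 and 27.2 against 3.82, 7.87, 6.34 and 4.56 (2.33 ± 0.16). Tenc1, which encodes a tensin of focal adhesions, was at 12.1 to 14.3 against 1.32 to 2.64 (2.43 ± 0.18), and Clca1 at 5.33 to 11.5 against 0.118 to 1.95 (2.64 ± 0.20). The highest Clca1 value of CD150neg MPP came from mouse 1, and the other 3 lay at 0.118 to 0.310.

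Apart from these, the greatest differences under the same condition were 3.45 ± 0.50 for SNORD113, 3.00 ± 0.32 for Nupr1, 2.88 ± 0.27 for Sult1a1, 2.65 ± 0.28 for Clec1a, 2.62 ± 0.27 for Glipr1l1 and 2.48 ± 0.51 for RP24-262G23.4. Nupr1 encodes a stress-induced chromatin protein and Sult1a1 a sulfotransferase. SNORD113 is a small nucleolar RNA family of near-identical copies, so its reads could have been split among them. Sult1a1 ranged widely within CD150hi HSC, with 102, 28.5, 49.2, 35.4 and 116, but the lowest of these was above the highest CD150neg MPP value of 9.37. Clec1a overlaps Clec1b and Clec9a on chromosome 6, which were both higher too (1.09 and 2.32), and counting without strand could not tell such reads apart.

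Among the genes lower in CD150hi HSC, Flt3 had the smallest p-value of all genes (chromosome 5, 148142317 to 148212065, mm9). It encodes the receptor for FLT3 ligand, which drives early lymphoid and dendritic development. It was at 3.46, 2.55, 3.12, 2.37 and 5.16 in CD150hi HSC and at 57.6, 39.5, 42.1 and 41.8 in CD150neg MPP (-3.54 ± 0.16, adjusted p = 3.29e-10). Every CD150neg MPP library was above every CD150hi HSC library, as the condition on leading genes required, and mouse 1 had the highest CD150neg MPP value. Gm17398, also among the 12 lower genes with the smallest p-values (-2.60 ± 0.20), overlaps Flt3, and its reads could not be told apart from those of Flt3 without strand.

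Cd52, which encodes a small GPI-anchored glycoprotein of lymphocytes, was at 1.05, 0.686, 1.06, 1.95 and 2.95 in CD150hi HSC and at 33.9, 33.6, 21.3 and 22.5 in CD150neg MPP (-3.67 ± 0.20, adjusted p = 2.37e-09). Satb1, a chromatin organizer needed for lymphoid development, was at 2.45, 1.65, 1.26, 1.54 and 1.76 against 13.6, 10.6, 11.4 and 10.8 (-2.26 ± 0.13). Neither gene overlapped between the populations, by the same condition. Cd53, which encodes a tetraspanin of white blood cells, was at 9.16, 10.1, 7.42, 7.88 and 13.2 against 48.9, 76.7, 75.0 and 63.3 (-2.74 ± 0.20). Tespa1, an adaptor of T cell receptor signalling, was at 0.399 to 1.29 against 13.2 to 29.3 (-3.61 ± 0.26). Both genes were apart between the populations as well, again by that condition.

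Il1r1, the signalling receptor of interleukin 1, was at 1.46, 2.67, 3.63, 2.67 and 3.37 in CD150hi HSC and at 20.1, 24.2, 20.1 and 20.2 in CD150neg MPP (-2.60 ± 0.19). Serpinb1a, an inhibitor of neutrophil proteases, was at 4.18 to 12.5 against 37.2 to 42.4 (-2.27 ± 0.18), and Emb, which encodes the adhesion protein embigin, at 25.4 to 34.3 against 75.0 to 114 (-1.64 ± 0.12). Gm11428 showed a greater difference than any of these, with 0.979, 9.31, 15.3, 6.95 and 9.98 against 288, 387, 282 and 253 (-5.35 ± 0.34, adjusted p = 8.6e-09). BC035044 was at 0.0839 to 0.914 in CD150hi HSC and at 9.55, 13.5, 8.80 and 9.03 in CD150neg MPP (-3.09 ± 0.22). It overlaps Clec2i, which differed by -1.04 and was not called without mouse 2, 3 or 4 (adjusted p = 0.0828 to 0.124).

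**Figure D2:**
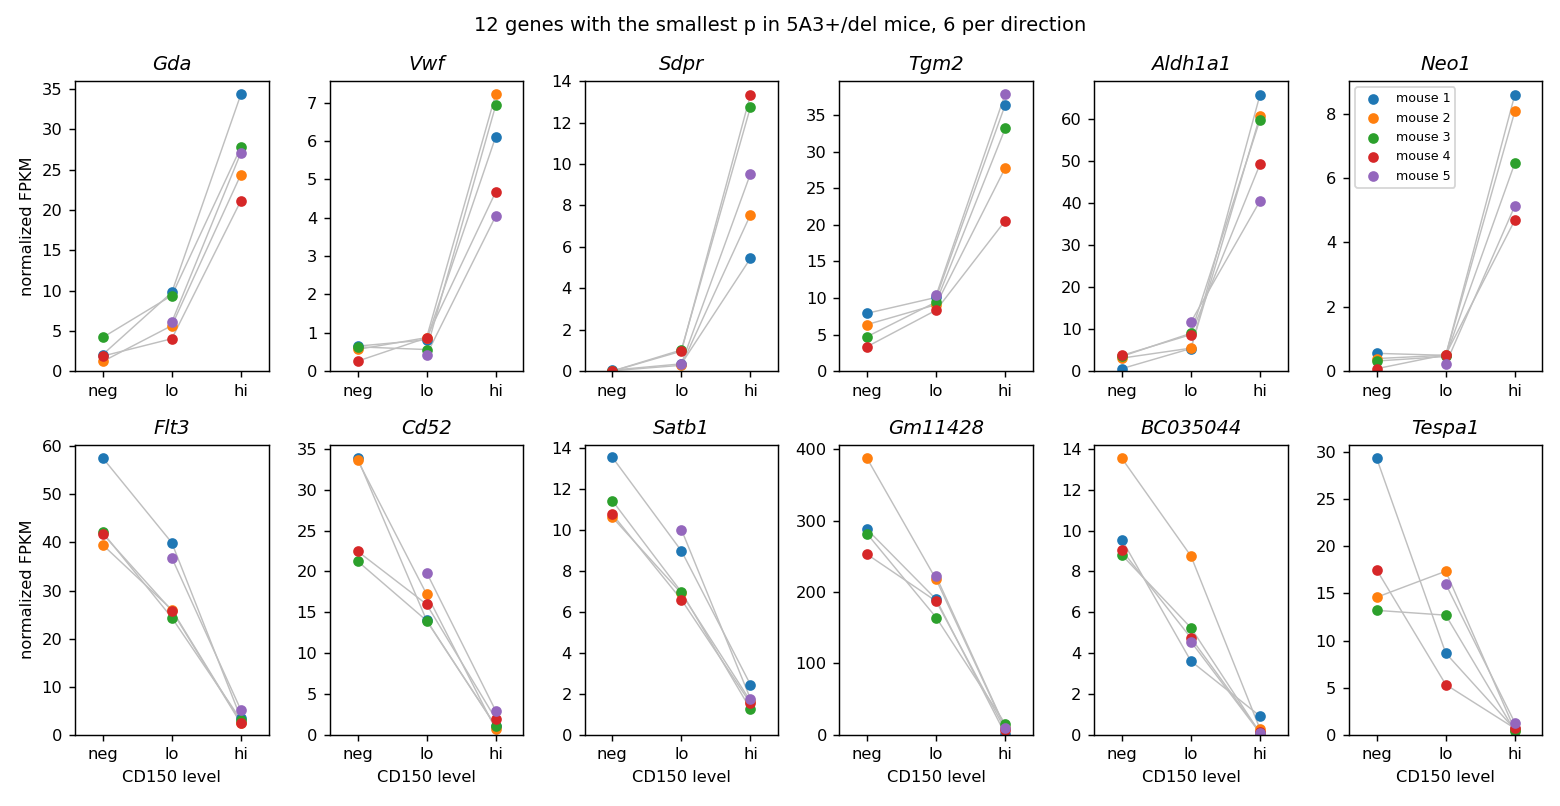
Normalized FPKM in each 5A3+/del library for the 6 genes per direction with the smallest p-values, against the CD150 level of the sorted population (neg, CD150neg MPP, 4 libraries; lo, CD150lo HSC, 5; hi, CD150hi HSC, 5). Genes were taken from those without overlap between CD150hi HSC and CD150neg MPP and with the same sign in all 4 paired mice. Each color is 1 mouse, lines join the libraries of a mouse, and each axis starts at 0. Vwf and Neo1 in CD150lo HSC lie near their level in CD150neg MPP, and Flt3 (mean 30.6 in CD150lo HSC) lies nearer to CD150neg MPP than to CD150hi HSC.

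Some transcripts of the antigen receptor loci were lower in CD150hi HSC. Ighm, which encodes the constant region of the immunoglobulin mu heavy chain, had 3, 0, 17, 0 and 0 fragments in the CD150hi HSC of mice 1 to 5 and 1218, 1337, 1668 and 2608 in the CD150neg MPP of mice 1 to 4 (-5.59 ± 0.51, adjusted p = 7.56e-07). Ighv1-77 had 0 fragments in all 5 CD150hi HSC libraries and 31 to 268 in CD150neg MPP. Against the floor of 3 fragments per library, its mean FPKM was at least 44.2-fold lower in CD150hi HSC. Single CD150neg MPP libraries ranged from 4.08 to 37.1 in deposited FPKM. Ighj1 was also at 0 in all 5, with 40, 27, 5 and 3 fragments in CD150neg MPP (mean FPKM at least 6.99-fold lower). Mice 3 and 4 were at or close to the floor. The call of Ighj1 was lost without mouse 1 (adjusted p = 0.0768) and without mouse 2 (adjusted p = 0.066). The annotation puts 31 of the genes tested in its immunoglobulin classes, which also hold the T cell receptor segment Trbv4. This group was chosen after its values were seen. Of the 31 genes, 7 were lower, 0 were higher and 24 were not called, against 3.15% of all genes called lower. A negative sign was found for 26 of the 31 and for 7807 of the 15409 genes tested. The other 4 lower genes were Trbv4, Ighv1-76, Ighv1-80 and Gm16710. Ighv1-77, Ighj1, Ighv1-76, Ighv1-80 and Gm16710 had 0 fragments in all 5 CD150hi HSC libraries and passed the filter only through other libraries. The filter thus tilted the counts and signs of this class to lower values, and they are no separate support. The call of Ighv1-80 was lost without mouse 1, 2 or 3 (adjusted p = 0.118 to 0.131), and that of Gm16710 without mouse 2, 3, 4 or 5 (0.0561 to 0.186) or WT mouse 1, 3 or 5 (0.058 to 0.0617). In normalized FPKM, Ighm was at 33.6 to 61.5 in CD150neg MPP and at 7.72, 14.5, 15.0, 17.2 and 159 in the CD150lo HSC of mice 1 to 5, so 4 of these libraries were below and 1 was above that range. Mature B cells were checked by their markers. Ms4a1 had 0 fragments in all 9 libraries. Of the 6 B cell markers, the 2 that passed the filter, Cd79a (-0.47 ± 0.40) and Cd79b (0.20 ± 0.34), were not called, and the summed FPKM of the list was 6.26 to 31.8 in CD150hi HSC and 9.45 to 15.6 in CD150neg MPP.

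The called genes were then described by lists of genes with a known role. Of 44 genes of stem cell identity, all of which passed the filter, 23 were higher in CD150hi HSC (52.3%, against 3.58% of all genes) and 2 were lower, with a median difference of 0.595 against -0.005 over all genes. The transcription factors among them included Gata2, at 97.5 ± 11.8 (SD, n = 5) in CD150hi HSC and 39.8 ± 10.3 (n = 4) in CD150neg MPP (1.26 ± 0.15), Mecom at 27.9 ± 4.3 and 14.4 ± 1.15 (0.91 ± 0.11), Mycn (1.23 ± 0.14), Hoxb5 (1.25 ± 0.14), Gfi1b (1.5 ± 0.17), Meis1 (0.47 ± 0.11) and Tal1 (0.49 ± 0.11). Meis1 was not called without mouse 3 (adjusted p = 0.0503), nor Tal1 without mouse 2 (adjusted p = 0.0787). Mllt3, a reader of acetylated histones that maintains stem cells, was at 53.4, 47.9, 40.8, 35.4 and 31.5 in CD150hi HSC. Its 4 CD150neg MPP values lay between 12.3 and 13.3 (1.71 ± 0.12, adjusted p = 4.26e-08). Tgm2, which encodes a transglutaminase, was at 36.4, 27.8, 33.2, 20.6 and 38 against 7.91, 6.37, 4.72 and 3.35 (2.25 ± 0.14).

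Tek, the angiopoietin receptor, was at 10.9 ± 2.07 (SD, n = 5) and 3.08 ± 0.546 (n = 4), a difference of 1.58 ± 0.17. The surface proteins Esam (0.98 ± 0.13) and Eng (0.55 ± 0.13) were also higher, the latter not without mouse 3 (adjusted p = 0.0649). Kit, Ly6a, Robo4 (0.24 ± 0.16) and Thy1 (0.28 ± 0.37), other surface proteins of the list, were not called. The 2 lower genes were Cd48 and Cd34, a surface sialomucin that the most primitive mouse stem cells lack. Cd34 was at 38.4, 58.1, 44.7, 49.5 and 57.1 in CD150hi HSC and at 201, 170, 167 and 168 in CD150neg MPP (-1.85 ± 0.16, adjusted p = 4.19e-07). A further 19 genes of the list were not called, and the most abundant of these were Lmo2 (368 ± 52.6 and 383 ± 37.5, a difference of -0.01 ± 0.16) and Hlf (215 ± 29.6 and 250 ± 31.1, -0.15 ± 0.11). Procr, which encodes the protein C receptor EPCR, was at 76.8 ± 6.13 and 59.5 ± 7.62 without overlap (0.38 ± 0.14, adjusted p = 0.122).

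Of 28 megakaryocyte and platelet genes, 24 passed the filter, of which 12 were higher (50%, against 3.58% of all genes), 1 was lower and 11 were not called (median 0.729). Vwf, which encodes von Willebrand factor, was at 6.11, 7.22, 6.93, 4.67 and 4.04 in CD150hi HSC and at 0.652, 0.566, 0.634 and 0.260 in CD150neg MPP (2.22 ± 0.13, adjusted p = 2.85e-09). Itgb3, the beta subunit of the platelet fibrinogen receptor, was at 15.4, 8.16, 11.1, 6.55 and 23.4 against 3.03, 1.09, 1.23 and 0.673 (2.21 ± 0.21). The groups were apart in both genes, which for Vwf was a condition of its choice as a leading gene. Mmrn1, which encodes multimerin, was at 68.7 to 83.0 against 25.7 to 30.4 (1.40 ± 0.12). Clu, which encodes clusterin, had 162 to 350 fragments in CD150hi HSC, 0 in the CD150neg MPP of mice 1 to 3 and 24 in that of mouse 4. The lower member was Plek, which encodes pleckstrin, a substrate of protein kinase C in platelets and in white blood cells, at 8.16 to 12.4 against 26.6 to 40.8 (-1.69 ± 0.15). Pf4, which encodes platelet factor 4, was at 31.8, 15.2, 18.1, 12.4 and 15.1 against 25.7, 16.6, 14.7 and 14.6 (-0.02 ± 0.30) and did not pass. Of 14 erythroid genes that passed the filter, 1 was higher (7.14%, against 3.58% of all genes), Tal1, which is also in the stem cell list, and 0 were lower.

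Of 32 lymphoid genes, 23 passed the filter, of which 12 were lower in CD150hi HSC (52.2%, against 3.15% of all genes), 1 was higher and 10 were not called (median -0.709). Beside Flt3, Cd52 and Satb1, the lower genes included Dntt, Lax1, Cd37, Sox4, Cd27, Notch1, Ikzf1 and Runx2. Dntt encodes the terminal transferase that adds nucleotides during receptor rearrangement and was at 0.536 ± 1.08 (SD, n = 5) against 8.47 ± 4.34 (n = 4), a difference of -2.71 ± 0.42. Ikzf1, the transcription factor Ikaros, was at 55.0 ± 12.9 against 93.1 ± 5.53 (-0.75 ± 0.12), and Notch1 at 4.03 ± 0.907 against 8.14 ± 0.218 (-0.94 ± 0.15). The higher member was Socs2, a suppressor of cytokine signalling (1.29 ± 0.17). Mef2c at 36.8 to 44.4 and 38.2 to 46.2 (-0.02 ± 0.12) and Il2rg (-0.07 ± 0.14) were not called, and Il7r, Rag1 and Rag2 did not pass the filter.

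Of 28 granulocyte and monocyte genes, 22 passed the filter, of which 10 were lower (45.5%, against 3.15% of all genes), 0 were higher and 12 were not called (median -0.688). Plac8 was at 1.72, 10.6, 8.31, 5.87 and 6.47 in CD150hi HSC and at 29.6, 43.1, 31.9 and 33.6 in CD150neg MPP (-2.40 ± 0.20, adjusted p = 1.91e-07). Cd33, a sialic acid binding receptor of myeloid cells, was at 0.406, 4.85, 0.0538, 0.856 and 2.26 against 16.5, 11.9, 12.6 and 13.1 (-2.82 ± 0.29). Mice 2 and 5 had the highest Cd33 values in CD150hi HSC, still below the CD150neg MPP. In fragments, Cd33 was at 1, 316, 15, 74 and 196 in the CD150hi HSC of mice 1 to 5. The transcription factors Gfi1 (-1.05 ± 0.16) and Sfpi1, which encodes PU.1 (-0.53 ± 0.16, adjusted p = 0.0476), and the receptors Csf3r (-0.88 ± 0.12) and Csf2rb (-0.46 ± 0.13) were lower as well, as were Nkg7, Emb, Ctss and Itgam. The call of Sfpi1 was lost when any 1 of the 5 5A3+/del mice was left out (adjusted p = 0.0536 to 0.271) and without WT mouse 1, 3 or 5 (0.0551 to 0.072), and that of Csf2rb without mouse 2, 3, 4 or 5 (0.0589 to 0.199) or WT mouse 5 (0.0607). Lyz2, at 184 to 216 and 171 to 221 (0.10 ± 0.15), and Prtn3 (-0.41 ± 0.16) were the most abundant members not called. Ccl3, a chemokine outside the list, was at 7.57, 17.0, 7.27, 3.75 and 4.18 against 174, 137, 125 and 96.0 (-3.93 ± 0.37). Expi had 0, 0, 0, 1 and 0 fragments in CD150hi HSC and 315, 465, 286 and 209 in CD150neg MPP.

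Markers of mature cells were checked beside these lists. The 6 mature neutrophil markers that passed the filter were not called, and their summed FPKM was 14.7 to 132 in CD150hi HSC and 2.86 to 252 in CD150neg MPP. S100a8 had 0, 628, 75, 99 and 150 fragments in the CD150hi HSC and 23, 244, 1026 and 569 in the CD150neg MPP. Of the macrophage markers, Cd68 was lower (-0.97 ± 0.25, adjusted p = 0.0247). The other 4 that passed the filter had positive differences, from 0.29 for C1qc to 0.46 for Vcam1, and were not called. The summed FPKM of this list was 5.39 to 23.3 against 13.5 to 32.6. Its most abundant member was Cd68, with means of 10.3 and 20.0. Of the T and NK cell markers, Klrb1c was higher (1.24 ± 0.33, adjusted p = 0.028). Cd4, the only other that passed the filter, had a negative difference and was not called (-1.08 ± 0.34). Sums of this list were 2.17 to 6.54 against 2.00 to 6.73, while Ncr1 had 0 fragments in all 9 libraries and Cd3e 0 to 5. Sums were 0.400 to 2.39 against 1.04 to 4.22 for mast cells and basophils, 17.1 to 50.8 against 24.8 to 63.1 for erythroblasts and 6.97 to 11.4 against 7.12 to 10.2 for stroma and endothelium, and no member of these 3 lists was called. Cd68 was not called without mouse 1 (adjusted p = 0.228) or 2 (0.168), nor Klrb1c without mouse 2 (0.201), 3 (0.0684) or 4 (0.174). The part of other cell types in the results above was not tested. In sorted bulk samples, fewer cells of a kind and less RNA per cell cannot be told apart.

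Of 34 mitosis genes, 2 were lower (5.88%, against 3.15% of all genes), Top2a at 7.84, 8.32, 12.3, 15.2 and 11.9 against 13.8, 17.8, 18.9 and 23.2 (-0.75 ± 0.21, adjusted p = 0.034) and Kif20a at 0.576 to 1.42 against 2.07 to 2.17 (-0.74 ± 0.16, adjusted p = 0.00798), and 29 of the 34 had a negative sign (median -0.364). Top2a overlapped between the populations and Kif20a did not. Mki67 was at 14.8 to 21.2 against 19 to 30 (-0.42 ± 0.23, adjusted p = 0.347). Of 45 DNA replication genes that passed the filter, 3 were lower (6.67%), Mcm10 (-0.81 ± 0.15), Rfc2 (-0.72 ± 0.18) and Mcm5 (-0.43 ± 0.12). These small counts moved to 0 and 1 without mouse 1. Top2a was not called when any 1 of the 5 5A3+/del mice (adjusted p = 0.0562 to 0.12) or WT mouse 4 or 5 (0.0541 and 0.0539) was left out. Kif20a (0.0553) and Rfc2 (0.184) were not called without mouse 1, nor Mcm5 without mouse 1, 2, 3 or 4 (0.0867 to 0.152) or WT mouse 1, 3 or 5 (0.0529 to 0.0595). Among 23 regulators of G1, 2 were higher (8.7%, against 3.58% of all genes) and 1 was lower (4.35%, against 3.15%). Cdk6, a kinase that brings stem cells out of quiescence, was lower at 24.9, 41.7, 31.2, 35.8 and 37.1 against 38.4, 53.9, 57.6 and 62.8 (-0.67 ± 0.14, adjusted p = 0.00547). Ccnd2, which encodes cyclin D2, was higher at 62.1 to 91.4 against 48.6 to 58.0 (0.54 ± 0.11), as was Cdkn1c, which encodes the inhibitor p57, at 10.9, 17.3, 16.2, 16 and 10.4 against 4.17, 9.25, 3.74 and 4.09 (1.33 ± 0.28, adjusted p = 0.00531). Without mouse 3 neither Cdk6 (adjusted p = 0.0503) nor Cdkn1c (0.0563) was called.

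Cdkn1c is also an imprinted gene. Of 25 imprinted genes, 18 passed the filter, of which 7 were higher in CD150hi HSC (38.9%, against 3.58% of all genes) and 0 were lower (median 0.391). Grb10, an adaptor that inhibits growth factor receptors, was at 25.2, 24.5, 18.8, 20.3 and 17.1 against 3.74, 7.07, 6.47 and 5.40 (1.79 ± 0.14, adjusted p = 8.55e-08). Meg3 (chromosome 12, 110779211 to 110809936, mm9), a maternally expressed long noncoding RNA, was at 3.56, 3.88, 2.70, 2.09 and 2.35 against 0.548, 0.822, 0.240 and 0.248 (1.5 ± 0.12). Rian, the next transcript of the same cluster and the host of small nucleolar RNAs, was at 5.44 to 10.2 against 0.823 to 3.03 (1.78 ± 0.24). Igf2, which encodes a fetal growth factor, had 149 to 671 fragments against 0 to 30 (1.44 ± 0.24), and H19 (1.10 ± 0.26) and Snrpn (1.16 ± 0.30) were higher as well. Leaving out mouse 3 left 4 imprinted genes called, the 8 paired libraries alone 2, and a filter at FPKM 5 left 3. H19 was not called without mouse 3 (adjusted p = 0.0827) or 4 (0.0762), nor Snrpn without mouse 1 (0.0917), 3 (0.0655) or 4 (0.135). Of the 18, Impact and Slc22a18 were the most abundant of the 11 not called (-0.20 ± 0.19 and -0.46 ± 0.30).

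In the other lists, counts were small. Of 24 glycolysis genes, 2 were higher and 2 were lower (8.33% each, against 3.58% and 3.15% of all genes). Ldha (0.56 ± 0.13) and Pdk4, a kinase that keeps pyruvate out of the mitochondria (1.13 ± 0.22), were higher, and Gapdh (-0.39 ± 0.10) and Pfkl (-0.59 ± 0.17) were lower. Of 77 nuclear genes of oxidative phosphorylation, 0 were higher and 2 were lower (2.6%, against 3.15% of all genes). The 2 were Cycs (-0.46 ± 0.13) and Ndufs8 (-0.59 ± 0.17), and the list had a median of -0.03. Of 78 genes for cytosolic ribosomal proteins, 0 were called by limma (median 0.079), and 0 of 8 Gimap GTPase genes (median 0.233). Of 32 interferon and MHC genes, H2-Aa was higher (0.57 ± 0.12) and Oas2 was lower (-0.87 ± 0.23), which is 3.12% in each direction. The list of 25 immediate early genes had 4% called in each direction. Atf3 was higher at 5.58, 4.21, 1.18, 2.23 and 0.389 against 0.580, 0.613, 1.02 and 0.082 (1.32 ± 0.35), with overlap, and Btg2 was lower (-0.62 ± 0.18). Of these 10 genes, Pdk4 and H2-Aa kept the call when any 1 mouse was left out. The other 8 lost it, with adjusted p-values of 0.101 for Ldha without mouse 1, 0.0617 to 0.18 for Gapdh without mouse 1, 3 or 4, 0.0641 to 0.164 for Pfkl without mouse 1, 2, 3 or 4, and 0.0589 to 0.244 for Cycs and 0.069 to 0.191 for Ndufs8 without mouse 1, 2, 4 or 5. They were 0.0565 to 0.184 for Oas2 without mouse 1, 3 or 4, 0.106 to 0.181 for Atf3 without mouse 1, 2 or 4 and 0.0812 to 0.253 for Btg2 without mouse 2, 3, 4 or 5. Leaving out a WT mouse also ended the calls of Pfkl (mouse 1, 4 or 5), Cycs (3 or 4), Ndufs8 (2, 3, 4 or 5) and Btg2 (2, 3 or 5), with adjusted p-values of 0.0508 to 0.0749.

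**Figure D3:**
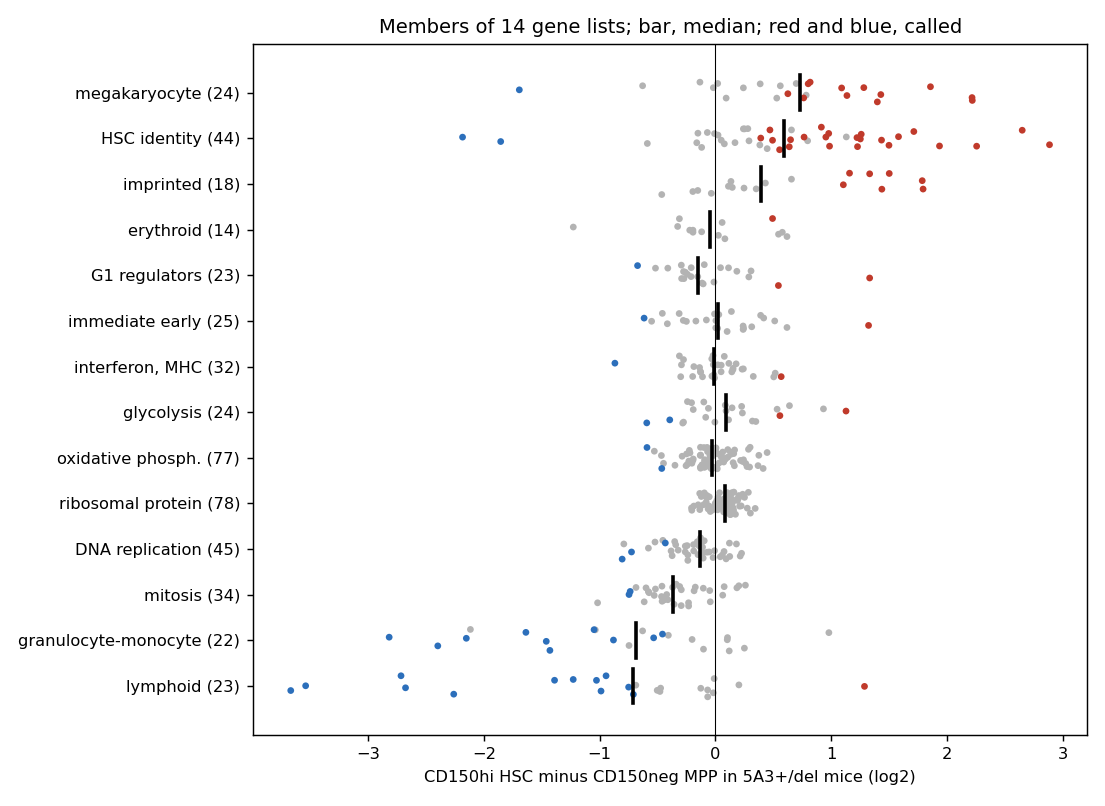
Difference between CD150hi HSC and CD150neg MPP of 5A3+/del mice (log2 of normalized FPKM + 1) for each member of 14 gene lists that passed the filter, whose number stands beside the name. Red and blue points were called higher and lower in CD150hi HSC, grey points were not called, and bars are medians. Medians run from 0.729 for megakaryocyte genes to -0.709 for lymphoid genes, against -0.005 over all genes tested.

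Of the 14 genes of the deleted interval and its edges, 9 passed the filter. Of these, 1 was called higher (11.1%, against 3.58% of all genes) and 0 were called lower (against 3.15%). 5031425E22Rik (chromosome 5, 22937628 to 22939737, mm9), which lies just before Mll5, was higher in CD150hi HSC, at 10.7, 5.08, 3.51, 6.06 and 5.60 against 2.77, 1.62, 2.17 and 5.48 (0.90 ± 0.24, adjusted p = 0.0255). The populations overlapped, since the CD150neg MPP of mouse 4 was above 2 of the CD150hi HSC libraries. Without the CD150hi HSC library of mouse 1 the difference was 0.72 (adjusted p = 0.119), without both libraries of mouse 1 it was 0.68 (adjusted p = 0.202), and without mouse 2 5031425E22Rik differed by 0.77 (adjusted p = 0.0949). Mll5, a SET domain protein, was at 19.7 to 27.7 against 23.6 to 29.7 (-0.15 ± 0.13), and Armc10, Psmc2, Dnajc2, Orc5, Pmpcb, Napepld and Srpk2 were not called either, with differences between -0.34 for Psmc2 and 0.41 for Napepld. Fbxl13, Lrrc17, Slc26a5, Reln and Lhfpl3 did not pass the filter.

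CD150lo HSC of the same mice were outside the contrast, but their libraries shared its normalization, mouse terms and variance. They lay between the other 2 populations for most called genes. Their mean was between the 2 means for 508 of the 551 higher genes (92.2%) and for 457 of the 485 lower genes (94.2%), against 44.9% of all genes tested, but genes called for a gap leave more room between the means. On a scale with CD150neg MPP at 0 and CD150hi HSC at 1, the median position of CD150lo HSC was 0.293 for the higher and 0.310 for the lower genes. They were nearer to CD150neg MPP for 84.9% and 79.0% of these genes, against 56.7% of all genes. For Vwf, the mean normalized FPKM was 0.709 in CD150lo HSC, between 0.528 in CD150neg MPP and 5.79 in CD150hi HSC. For Satb1, it was 7.90, between 11.6 and 1.73.

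The same comparison in WT mice called 1646 genes (10.7%), 890 higher and 756 lower. WT had 5 CD150neg MPP libraries and 5A3+/del mice had 4. Leaving out any 1 WT mouse left 599 to 771 higher and 523 to 640 lower genes in WT. The totals of the 2 genotypes therefore do not measure which gap was larger. Of the 1036 genes called in 5A3+/del mice, 709 were called in the same direction in WT (68.4% of these genes and 43.1% of the 1646). In the opposite direction, 0 of them were called. WT had the same sign for 96.6% of the higher and 95.5% of the lower genes, against 62.1% of all genes tested. The median WT difference was 0.767 for the higher and -0.735 for the lower genes, against 0.933 and -0.865 in 5A3+/del mice, which chose these genes. The difference of the 2 contrasts was tested for each gene, and 0 genes passed in limma (smallest adjusted p = 0.348), with 1385 genes (8.99%) at an unadjusted p under 0.05. A call in a single genotype, which 327 genes had in 5A3+/del mice, was therefore not shown to be a difference between genotypes.

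Some of the genes named above had WT differences near those of 5A3+/del mice, with -3.74 for Flt3, 2.16 for Vwf, -2.14 for Satb1, -3.57 for Cd52 and 3.44 for Aldh1a1. Others differed more between the genotypes. Mllt3 differed by 1.11 in WT and 1.71 in 5A3+/del mice (unadjusted p = 0.0018 for the difference of the contrasts) and Cyp26b1 by 2.25 and 3.59 (unadjusted p = 0.0014). 5031425E22Rik differed by -0.33 in WT and 0.90 in 5A3+/del mice (unadjusted p = 0.0013), and none of these 3 passed the adjustment. The smallest p-values were those of Mir17hg, the host gene of the miR-17-92 cluster, with 0.56 in 5A3+/del and -0.83 in WT mice, Rpl12-ps1 with -0.35 and 0.83, and Gm17271 with 1.12 and -1.84. Of 78 ribosomal protein genes, WT had 17 higher and 0 lower (median 0.203), and of 77 oxidative phosphorylation genes 7 and 2 (median 0.139). Over all 15409 genes tested, WT had 890 higher and 756 lower (median -0.007). Since 0 genes passed the difference of the contrasts, these list counts were not shown to differ between genotypes. For mature neutrophil markers the medians were -0.760 in 5A3+/del and 1.495 in WT mice, and their part in these differences was not tested.

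**Figure D4:**
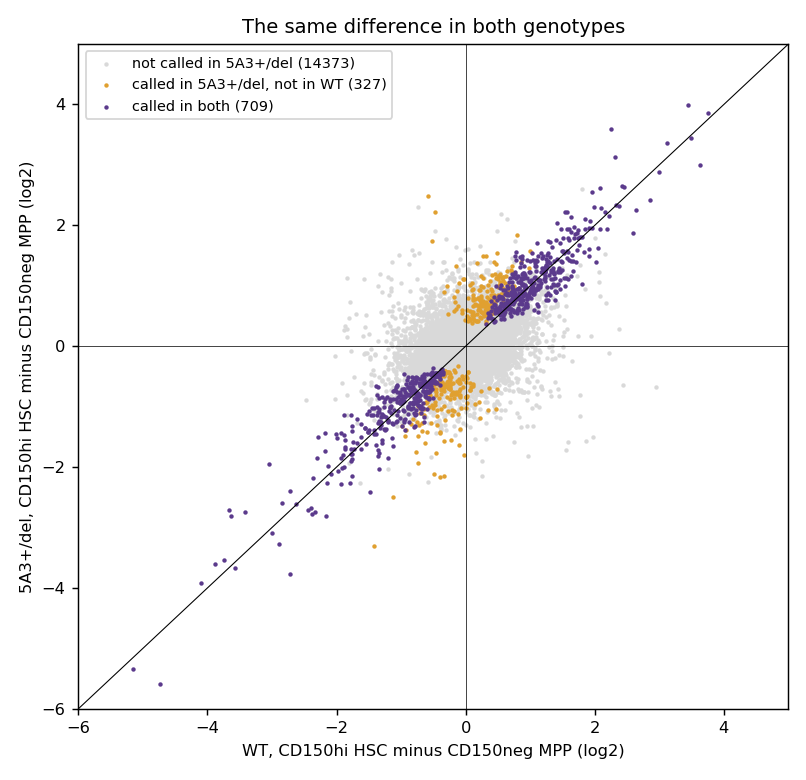
CD150hi HSC minus CD150neg MPP (log2 of normalized FPKM + 1) in 5A3+/del mice against the same difference in WT mice, 1 point per gene tested, with the line of equal values. Purple, 709 genes called in both genotypes in the same direction. Yellow, 327 genes called in 5A3+/del but not in WT mice. Grey, 14373 genes not called in 5A3+/del mice. Purple points have the same sign in both genotypes by definition, so their place along the line is no finding.

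Promoter sequence was used as a readout that the calls did not use. RefSeq promoter windows (GRCm38.p6, 250 bases before to 50 after the transcript start) matched 10087 of the 15409 genes tested, 409 of the 551 higher and 329 of the 485 lower genes. Where a gene had several starts, the first in the table was taken. Of 6 motifs searched on both strands, GAGGAAGT, a sequence bound by PU.1, the master factor of myeloid and B lymphoid cells, was in 30 of the 329 lower promoters (9.12%) and in 10 of the 409 higher promoters (2.44%), against 3.28% of all genes tested and 3.2% of the 32851 windows in the table. The motif of the GATA factors of stem, red and megakaryocytic cells, which reads AGATAA, was in 9.05% of the higher and 9.73% of the lower promoters, against 6.62% of all genes tested. TGTGGT, a RUNX motif, was in 9.78% and 16.7%, against 12.8%. CCGGAAGT, an ETS motif that shares its last 6 letters with the PU.1 motif, was in 1.71% and 3.34%, against 8.55%, and TTTNNCGC, an E2F motif, in 5.87% and 5.78%, against 8.82%. TTTGAA, the core of the cell cycle homology region (CHR) of mitosis genes, was in 12.5% and 13.4%, against 12.5%. It was in 22 of 29 promoters of the mitosis list (75.9%), and the E2F motif in 14 of 36 promoters of the DNA replication list (38.9%).

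The 3 lower genes with the smallest p-values whose window holds the PU.1 motif are shown, 5′ to 3′ on the strand of the gene, with the motif in capitals. In all 3 it reads ACTTCCTC, which is the motif on the opposite strand, and it starts at base 258, 209 and 257 of the window, around the transcript start at base 251. They are Satb1 at chr17:51833241-51833540, BC035044 at chr6:128891075-128891374 and Cd53 at chr3:106790100-106790399, all on the minus strand. Satb1 has 5 starts in the table.
Satb1: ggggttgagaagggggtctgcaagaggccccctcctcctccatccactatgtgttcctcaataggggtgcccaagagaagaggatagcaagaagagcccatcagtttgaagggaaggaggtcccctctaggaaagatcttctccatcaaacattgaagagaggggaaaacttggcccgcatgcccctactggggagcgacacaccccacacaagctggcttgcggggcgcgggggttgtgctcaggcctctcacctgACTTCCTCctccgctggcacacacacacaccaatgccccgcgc
BC035044: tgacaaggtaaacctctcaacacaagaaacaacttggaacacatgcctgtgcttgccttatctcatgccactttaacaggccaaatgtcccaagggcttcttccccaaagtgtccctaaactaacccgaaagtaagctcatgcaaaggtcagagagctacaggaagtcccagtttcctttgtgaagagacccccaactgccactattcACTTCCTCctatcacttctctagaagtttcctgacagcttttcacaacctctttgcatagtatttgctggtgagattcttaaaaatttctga
Cd53: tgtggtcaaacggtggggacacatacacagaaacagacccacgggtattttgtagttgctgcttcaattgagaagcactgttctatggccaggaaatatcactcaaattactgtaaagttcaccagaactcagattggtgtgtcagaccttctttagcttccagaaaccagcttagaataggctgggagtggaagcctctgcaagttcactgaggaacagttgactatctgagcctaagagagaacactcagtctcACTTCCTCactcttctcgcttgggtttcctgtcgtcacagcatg

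Of the 2 mitosis genes called, Top2a is shown for the CHR core, which is in its window at bases 72 and 228, the second on the opposite strand (chr11:99024140-99024439, minus strand). A match of letters describes the window and is not a site shown to be bound.
Top2a: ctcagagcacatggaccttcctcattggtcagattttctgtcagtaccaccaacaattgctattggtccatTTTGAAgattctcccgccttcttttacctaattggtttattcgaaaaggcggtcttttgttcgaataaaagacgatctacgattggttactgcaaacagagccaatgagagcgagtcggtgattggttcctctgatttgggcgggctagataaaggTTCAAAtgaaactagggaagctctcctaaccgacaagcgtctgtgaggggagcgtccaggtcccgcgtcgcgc

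**Figure D5:**
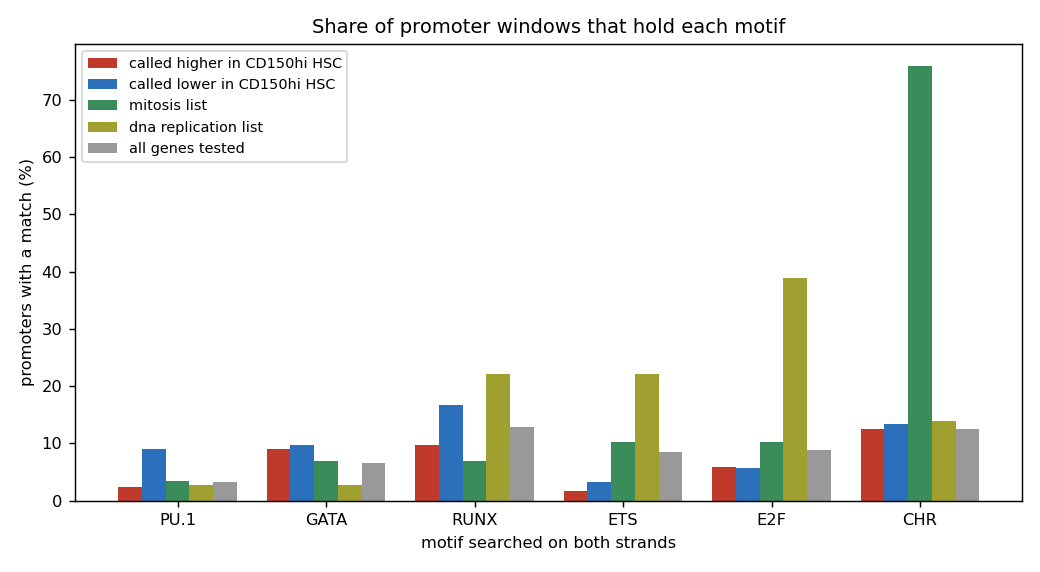
Share of RefSeq promoter windows of 300 bases that hold each of 6 motifs on either strand, in percent, for genes called higher (red) or lower (blue) in CD150hi HSC of 5A3+/del mice, the mitosis (green) and DNA replication (olive) lists and all genes tested (grey). The PU.1 motif is in 9.12% of the lower and 2.44% of the higher promoters, and the CHR core in 75.9% of the mitosis promoters.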

How the data were processed

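RNA from sorted cells was amplified and sequenced in paired ends by the authors, and the submitters' processing notes name mm9, Bowtie 0.12.2 and HTSeq without their roles. The authors deposited FPKM per gene for 30025 genes in 29 libraries, not quantile normalized. Whether counting used strand is not given in the sources used here. Fragments per library were recovered from steps of the low values (98.77% to 99.05% whole within a tolerance of 0.1 fragments in the 9 libraries). Amplified fragments are not independent molecules, so the floor of 3 fragments covers counting error only.

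A gene was tested when 4 or more libraries reached FPKM 1 (15409 genes), and log2(FPKM + 1) values were quantile normalized, which moves a deposited 0 to a small value above 0. Of the 9 libraries, the CD150hi HSC library of mouse 1 had its low values raised most, with a deposited 0 at 0.138. limma 3.58.1 in R 4.3.3 then fitted a mean for each of the 6 groups of the 29 libraries with a block for mouse (15 residual degrees of freedom), two-sided, with Benjamini-Hochberg adjustment and a threshold of 0.05. Libraries with the same mouse code come from 1 animal, and deviations of the 4 pairs correlated at 0.067 to 0.175, against -0.127 to 0.088 between different mice.

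Named genes are the sort antigens, the interval genes, 12 per direction with the smallest p-values and 6 with the greatest differences among those without overlap and with the same sign in all 4 mice, up to 5 called and 2 abundant uncalled members per list, and the 3 smallest p-values of the difference of contrasts. Further list members, the antigen receptor genes and those of the last paragraphs were picked with their values in view. The comparison and the lists were chosen with earlier results of these data known, and the ribosomal list, defined by symbol, was added after the files were read. Lists were given no test. Some named genes are not reported here. Promoters came from RefSeq. Alternatives changed the block, the libraries, the pseudocount, the filter, the normalization and the variance prior, and left out each mouse. Leaving out the CD150hi HSC library of 5A3+/del mouse 1 alone was chosen after seeing the data. The fit was tested on simulated data. Python 3.11.15, pandas 2.3.3 and matplotlib 3.10.9 were used.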

Additional observations from a re-analysis of the deposited data

Results flagged for a closer look

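For the 30 genes whose values were given by library, and for 6 measures of the libraries, 72 groups of 4 or 5 libraries were checked for a highest or lowest library far from the rest of its group, and 10 were found. Chance gives about 1 in 20 such groups. The CD150hi HSC library of mouse 1 accounted for 4 of them, with -75.57 on the first and 31.68 on the second principal component, a normalized FPKM of 8.46 for Itga2b and of 0.914 for BC035044. In deposited FPKM, BC035044 was at 0.417 in this library and at 0.0226 to 0.289 in the CD150hi HSC of mice 2 to 5. Normalization had raised low values of this library, so the flag of BC035044 holds for normalized values only. The CD150neg MPP library of the same mouse was high for Flt3, at 57.6, and for Clca1, at 1.95. The CD150neg MPP library of mouse 2 was high for BC035044, at 13.5, and for Il1r1, at 24.2, and its CD150hi HSC library was high for Kit, at 213. The CD150neg MPP library of mouse 4 was low for Ly6a, at 127. Without the CD150hi HSC library of mouse 1, 392 of the 551 higher and 330 of the 485 lower genes remained called.

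The 3 genes with the smallest p-values for the difference of the contrasts had opposite directions in every mouse of the 2 genotypes with both libraries, 4 5A3+/del and 5 WT mice. The differences in WT and 5A3+/del mice were -0.83 and 0.56 for Mir17hg, -1.84 and 1.12 for Gm17271 and 0.83 and -0.35 for Rpl12-ps1. The test of the difference did not pass the adjustment in limma for any of them (smallest adjusted p = 0.348), and they were chosen for their p-values among all genes tested.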

How the results depend on the processing

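In every alternative, the 1036 called genes that were still tested kept their sign (701 with a filter of FPKM 5). With no replicate block, 497 genes were higher and 452 lower, and with the block as a random effect 553 and 514, so the block changed no count by over 1.5 times, except that the mitosis list then had 0 and 1 genes lower. With no replicate block, 13 of 112 called genes named in the text lost the call (Atf3, Btg2, Cdk6, Csf2rb, Cycs, Gm16710, H2-Aa, Kif20a, Mcm5, Ndufs8, Oas2, Pfkl and Top2a), and 9 did with the block as a random effect. The 9 libraries alone, without the block, gave 252 higher and 197 lower genes, with 0 lower in the mitosis and 1 in the DNA replication list. The 8 paired libraries with the block gave 103 and 68, and list counts of 10 (stem cell identity), 7 (megakaryocyte), 2 (imprinted), 5 (lymphoid), 4 (granulocyte and monocyte), 0 (mitosis) and 0 (DNA replication). Both use fewer samples to estimate the spread. No filter gave 1 lower mitosis gene. A filter of FPKM 5 tested fewer genes and gave 6 megakaryocyte, 3 imprinted and 1 mitosis gene. Without normalization, 5 DNA replication genes were lower, and the cause was not tested. Asking for a log2 difference of at least 1 left 237 and 197 genes, 469 genes called in WT, 12 of stem cell identity and 0 of the mitosis and DNA replication lists. Leaving out 1 mouse or library gave 376 to 554 higher and 313 to 486 lower genes, with the lowest counts of lower genes without mouse 3 (313) and mouse 1 (321). List ranges were 4 to 7 (imprinted), 0 to 3 (mitosis) and 1 to 4 (DNA replication). The difference of contrasts gave 0 genes in each alternative that could test it. Of the 112 called genes, 59 kept the call in each alternative run and 53 lost it in at least 1. All 53 lost it with the 8 paired libraries, 31 with the 9 libraries alone, 13 with no filter, 5 with a pseudocount of 0.1 and 3 without normalization, and 28 when 1 mouse or library was left out. Of 34 genes not called, 1 was called in an alternative. Itga2b was called in 4 alternatives, with adjusted p-values of 0.0355 to 0.0485. Genes at a few fragments are limited by depth.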

Other observations

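The genes below were picked after their values were seen, most of them from the called genes, and stand for no list. Rarb, a retinoic acid receptor, was at a normalized FPKM of 5.90 ± 3.33 (SD, n = 5) in CD150hi HSC and 1.22 ± 0.531 (n = 4) in CD150neg MPP (1.72 ± 0.21 SE, adjusted p = 2.02e-05, limma), and Rdh10, which makes retinaldehyde from retinol, was higher too (1.11 ± 0.24, adjusted p = 0.00555). Dhrs3, which turns retinaldehyde back into retinol, was lower at 4.81 ± 3.03 against 18.6 ± 4.19 (-1.78 ± 0.26, adjusted p = 0.000173). Rara (-0.45 ± 0.15, adjusted p = 0.0862) and Rarg (0.12 ± 0.22, adjusted p = 0.837) did not pass.

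Of the SLAM receptor family, Cd244 was at 0.358 ± 0.202 in CD150hi HSC and 3.74 ± 0.306 in CD150neg MPP (-1.86 ± 0.19), and Ly9 at 3.47 ± 1.43 against 13.7 ± 2.95 (-1.84 ± 0.23), both without overlap, while Cd84 (0.18 ± 0.14) and Slamf8 (0.56 ± 0.37) were not called. Igf1, a secreted growth factor, was at 3.92 ± 2.20 against 0.251 ± 0.124 (1.94 ± 0.22). Inhba, which encodes a subunit of activin, was at 4.23 ± 1.36 against 0.118 ± 0.0965 (2.22 ± 0.31), and Bmp4 at 2.27 ± 0.668 against 0.106 ± 0.157 (1.56 ± 0.19). Lhcgr, the receptor of luteinizing hormone, was at 43.0 ± 12.5 against 10.0 ± 2.45 (1.95 ± 0.22), and Ghr, the growth hormone receptor, at 3.17 ± 0.929 against 0.672 ± 0.278 (1.23 ± 0.18).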
